A study of Mus musculus with 4 samples.

Results

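The nuclear genes for the 5 complexes of the mitochondrial respiratory chain were followed in Btaf1 mutant mouse embryos. Members were all non-control probes whose gene name in the scanner files begins with Ndufa, Ndufb, Ndufc, Ndufs, Ndufv, Sdha to Sdhd, Uqcr, Cox4 to Cox8 or Atp5. This gave 86 of the 21857 gene names on the array, with 125 probes. A gene is represented by its brightest probe well above background, a choice that does not use the ratio. By that rule, and with a value on every array, 81 members could be tested, out of 13775 genes tested in all. The prefixes catch 80 structural subunits and 6 other genes. Those are the complex I assembly factors Ndufaf1 and Ndufaf2, Atp5sl (a complex I assembly factor by later naming), the supercomplex factor Cox7a2l, the coupling factor gene Atp5s, and Cox4nb, a neighbour of Cox4i1 whose product belongs to a complex of the endoplasmic reticulum.

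The mutant group consisted of pools of whole embryos homozygous for the V1330M missense allele of Btaf1, which the labels also write as Btaf1-/-, and the wild-type group of pools of Btaf1+/+ embryos. Both groups came from a C57BL/6J *FVB/NJ background, 50 to 90% of it FVB/NJ, and most embryos were meant to have 3 to 5 somites. In the stage_matched set the pools were paired by somite number. The age_matched set put litter mates first, and its pools could differ by as many as 5 somites. Each set is 1 pair of pools on 2 two-colour arrays, with the mutant in Cy5 on array 1 and in Cy3 on array 2, so n = 2 sets on 4 arrays. The sources used here give neither the number of embryos per pool, nor whether embryos were shared between the sets, nor the handling of the yolk sac. The sets may therefore not be independent, and the SD and p-values measure the spread between these sets alone. BTAF1 is an ATPase that takes the TATA-binding protein off DNA, and the allele changes 1 residue, so the transcript does not test the label. The Btaf1 probe read 0.28, -0.12, 0.20 and 0.05 on stage_matched arrays 1 and 2 and age_matched arrays 1 and 2 (mean 0.10, adjusted p = 0.555).

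Of 43379 spots per array, 52.9% to 59.6% were well above background in a channel and 0 were saturated. Values are mutant over wild type on the log2 scale unless called intensities. Per-array values always follow the order stage_matched 1, stage_matched 2, age_matched 1, age_matched 2. A mean is over the 2 sets with the SD between them, and adjusted p values are from limma's two-sided moderated test over all 21940 tested probes, with a call at 0.05.

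The respiratory chain makes most of a cell's ATP. Complex I (NADH dehydrogenase) and complex II (succinate dehydrogenase) pass electrons to coenzyme Q, complex III hands them to cytochrome c, and complex IV (cytochrome c oxidase) gives them to oxygen. The protons pumped on the way drive complex V, the ATP synthase. Several small subunits of complex IV have paired isoforms, one in most tissues and one confined largely to heart and skeletal muscle or to testis. Early somite embryos rely heavily on glycolysis, and the heart is among the first tissues whose mitochondria mature.

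The probes that carry the calls are shown with the probes of their sister isoforms, and the second Ndufa7 probe with the brightest, since each value rests on these bases. The first 30 of their 60 bases are printed, 5′ to 3′, and capitals mark the longest run that the 2 printed stretches of a pair share.
Cox6a2: agcaatcttcaaaTTGGccttctgcacacc
Cox6a1: ggaccacgaaaaccctTTGGatgctaagct
Cox6b2: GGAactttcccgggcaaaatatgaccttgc
Cox6b1: aGGAgtcaggatggctgaagacatcaagac
Ndufa7 (brightest probe): cctaggttaccttgctatatatGTCTctag
Ndufa7 (second probe): tatccaaaagctgcggaactgggcGTCTgg
Over all 60 bases, the longest run shared on either strand was 6 bases in each of the 3 pairs, which describes the probes and does not test binding to a sister transcript. In the files' build, mm9, the Cox6a2 probe lies at chr7:135349160-135349219 (minus strand) and the Cox6a1 probe at chr5:115795726-115795785 (minus strand). The Cox6b2 probe lies at chr7:4703488-4703547 and the Cox6b1 probe between chr7:31409575-31411071, both on the minus strand. The brightest Ndufa7 probe lies at chr17:33975141-33975200 and the second between chr17:33961595-33962574, both on the plus strand. No annotation of that build was used, so the exon or untranslated region that a probe covers is not stated.

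Few respiratory chain genes passed the test in mutant embryos. Of 81 tested members, 1 fell (Cox6a2) and 1 rose (Cox6b2). Among all 13775 tested genes, 2.77% were called lower and 2.12% higher, 4.89% in either direction, against 2.47% of the members. The members' median was -0.02 (0.02 for age_matched and -0.04 for stage_matched pools), beside 0.02 over all tested genes. By probe, 2 of the 111 tested member probes were called lower and 1 higher, against 3.14% and 1.66% of all tested probes and 4.81% in either direction. There were 47 negative and 34 positive means, and 73 of 81 lay within 0.25 of 0. A p that misses the threshold does not show that a gene was unchanged, so the 95% interval of each mean was read as well. It stayed within 0.5 of 0, a 1.41-fold change, for 72 of 81 members (88.9%), and for 83.7% of all tested genes. The other 9 include Ndufa7, Ndufc1, Ndufb4, Sdha, Cox6a2 and Cox7a2l, whose intervals pass -0.5, and Cox5b and Cox6b2, whose intervals pass 0.5. The SD between the sets had a median of 0.106 over the members and was under 0.2 for 66 of them. The standard errors behind the intervals, which draw mostly on the shared variance, ran only from 0.091 to 0.129.

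**Figure D1:**
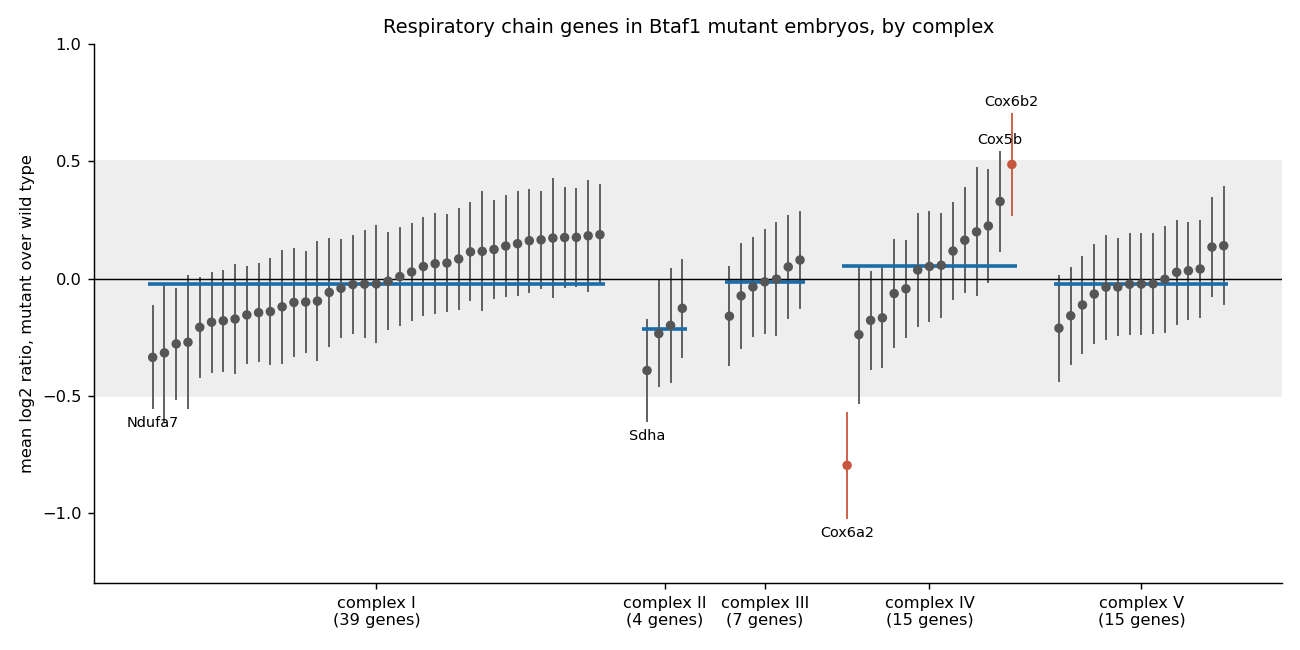
Mean log2 ratio of mutant over wild type (vertical axis) of each tested member of complexes I to V, sorted within its complex, with the 95% interval from limma as a line (n = 2 sets), calls in red and the median of each complex as a blue bar; the shaded band marks 0.5 either side of 0. Cox6a2 (-0.80) and Cox6b2 (0.49) are the 2 called genes, and all 4 complex II genes lie below 0.

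In complex I, 0 of 39 members passed the test, against 4.89% of all tested genes. Their means ran from -0.34 to 0.19, with a median of -0.02. The 7 core subunits, which carry the flavin and iron-sulphur clusters that move the electrons, had a median of 0.01. Ndufv1, which binds NADH, had the highest mean of the core, at 0.25, 0.17, 0.04 and 0.10 (mean 0.14 ± 0.10, adjusted p = 0.429). Ndufs1 (-0.02), Ndufs3 (0.11), Ndufs7 (-0.19), Ndufs8 (0.05) and Ndufv2 (0.01) had lower means, and none was called.

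The 29 accessory subunits of complex I surround this core. Their median was -0.03 and 0 were called by the brightest probe. Ndufa7 was the lowest at -0.37, -0.49, -0.23 and -0.26 (mean -0.34 ± 0.13, adjusted p = 0.0881). All 4 of its arrays were negative. Its second, dimmer probe read -0.41, -0.70, -0.61 and -0.35 and was called lower (mean -0.52 ± 0.05, adjusted p = 0.0246). The 2 probes do not overlap by the files' coordinates, and the second was singled out after its value was seen. Ndufc1 (-0.61, -0.54, -0.19 and 0.06, mean -0.32, adjusted p = 0.188) and Ndufb4 (-0.44, -0.41, -0.18 and -0.09, mean -0.28, adjusted p = 0.162) came next, both nearer to 0 in the age_matched set. At the other end, Ndufa9, which binds NADPH, had 0.47, 0.03, 0.40 and -0.15 (mean 0.19, adjusted p = 0.282). Its 2 highest values came from the arrays with the mutant in Cy5. The assembly factors Ndufaf1, Ndufaf2 and Atp5sl had means of -0.10, 0.17 and 0.18, without a call.

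Complex II, which also belongs to the citric acid cycle, was the complex whose members all had negative means. Among all 13775 tested genes, 6328 had negative means. None of its 4 genes passed the test (0 of 4, against 2.77% of all tested genes called lower), and their median was -0.22. The median was -0.35 in the age_matched set and -0.13 in the stage_matched set. Sdha, the flavoprotein that oxidises succinate, read -0.49, -0.12, -0.53 and -0.43 on its brightest probe (mean -0.39 ± 0.12, adjusted p = 0.0597). Its other probes averaged -0.21 each, and every one of the 12 Sdha values was negative. These values come from probes of 1 gene on arrays of 2 sets, so they are not independent replicates. The membrane anchors Sdhc (-0.35, 0.27, -0.50 and -0.21, mean -0.20) and Sdhd (-0.39, 0.15, -0.25 and -0.45, mean -0.23) were negative on all arrays but stage_matched 2. Sdhb, the iron-sulphur subunit, read -0.05, -0.24, -0.14 and -0.08 (mean -0.13 ± 0.02). The 95% intervals of the means ran from -0.61 to -0.17 for Sdha and from -0.34 to 0.08 for Sdhb.

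**Figure D2:**
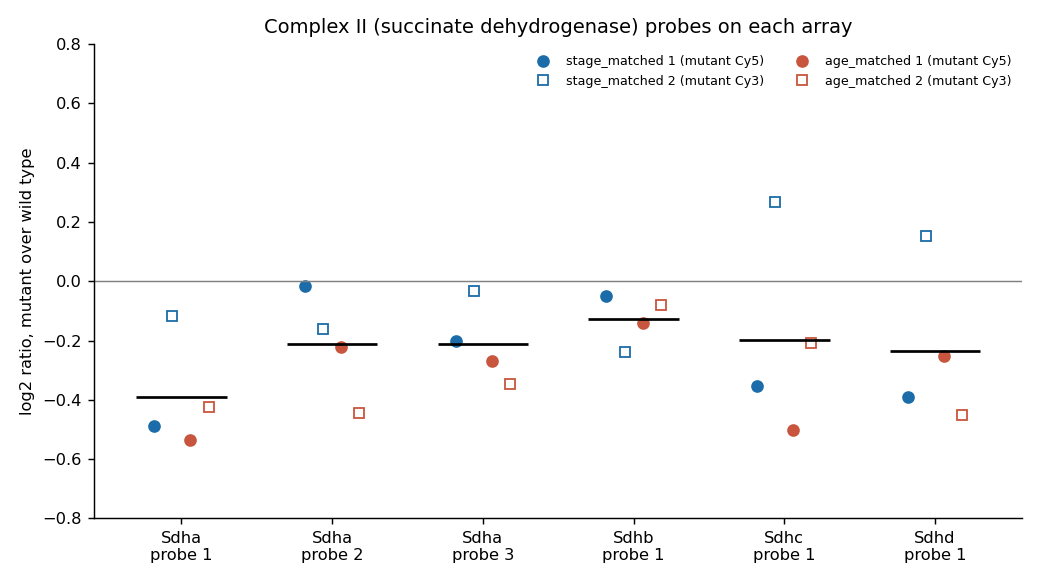
Log2 ratio of mutant over wild type (vertical axis) on each of the 4 arrays for the 6 tested complex II probes, with probe 1 the brightest of its gene and the black bar the mean of the 2 sets. All 6 means are negative (-0.39 to -0.13) and 0 are called; the only positive points are Sdhc and Sdhd on stage_matched array 2.

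In complex III, 0 of 7 members were called, against 4.89% of all tested genes, a share at which so few genes would hold few calls. The means ran from -0.16 to 0.08. The core proteins Uqcrc1 (0.05) and Uqcrc2 (-0.16) and the Rieske iron-sulphur protein Uqcrfs1 (0.00) framed a median of -0.01. Uqcrh, which helps cytochrome c dock, gave the largest contrast between dye orientations of these, with 0.63 and 0.50 on the arrays with the mutant in Cy5 and -0.46 and -0.73 on those with the mutant in Cy3. Its mean over both orientations was -0.01.

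In complex V, 0 of 15 tested members were called, against 4.89% of all tested genes, a share at which so few genes would hold few calls. All 15 intervals lay within 0.5 of 0, against 83.7% of all tested genes. The 5 genes of the F1 head, where ATP is made, had means from -0.16 (Atp5d) to 0.13 (Atp5e). Its catalytic and regulatory subunits Atp5b and Atp5a1 had means of 0.03 and -0.02, and Atp5c1, the rotating shaft, -0.02. Dimmer probes read lower without a call, at -0.27 for Atp5a1 and -0.27 and -0.30 for Atp5b. The 3 genes that encode the same mature c-ring protein, Atp5g1, Atp5g2 and Atp5g3, had means of 0.00, -0.02 and 0.14. Among the stalk and membrane subunits Atp5k was lowest, at -0.10, -0.55, -0.20 and -0.01 (mean -0.21 ± 0.16, adjusted p = 0.25). Atp5j was not tested because its spot on age_matched array 1 was marked by the scanning software, which left 0.32, -0.15 and 0.00 on the other 3 arrays. Atp5s had a mean of -0.07.

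Complex IV held both calls, 1 lower and 1 higher, against 2.77% and 2.12% of all tested genes. So few calls are not read as a trait of the complex. It also had the widest range, from -0.80 to 0.49 over 15 tested of 19 members, with a median of 0.05. The 10 subunits that are widespread or have no isoform had a median of 0.05 and 0 calls. Cox5b, which docks to the core from the matrix side, was the highest of them at 0.40, 0.38, 0.37 and 0.16 (mean 0.33 ± 0.09, adjusted p = 0.0868). All 4 arrays were positive. Cox5a (0.22), Cox7c (0.20), Cox4i1 (0.12), Cox6a1 (0.06), Cox6c (0.05), Cox7a2 (0.04), Cox8a (-0.04), Cox7b (-0.06) and Cox6b1 (-0.18) followed, none of them called. Ndufa4, formerly placed in complex I and not counted in the 10, had a mean of 0.16 without a call. Cox7a2l, which links complex IV into supercomplexes, had a mean of -0.24 that came mostly from -0.87 on age_matched array 2. Cox4nb had a mean of -0.13.

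Cox6a2, the heart and skeletal muscle isoform of subunit 6A, was lower in mutant pools. Its log2 intensities were 7.22, 7.39, 7.12 and 6.88 in mutant pools, against 8.06, 7.93, 8.25 and 7.56 in wild-type pools. Every mutant value lay below every wild-type value, and the probe was well above background in both channels on all 4 arrays. The mutant values were nonetheless dim, beside 6.15 to 6.27 in mutant pools for Cox8b, which was not detected. The size of the fall varied with processing and arrays used, with means from -1.28 to -0.58 over the alternatives. The ratios were -0.85, -0.53, -1.13 and -0.68 (mean -0.80 ± 0.15, adjusted p = 0.00978), 1.74-fold lower in mutant pools. The widespread isoform Cox6a1 was not called, with 0.05, -0.14, -0.08 and 0.39 (mean 0.06 ± 0.14, adjusted p = 0.78, 95% interval -0.17 to 0.28). On each array the Cox6a2 ratio was below that of Cox6a1, by -0.90, -0.40, -1.05 and -1.07. This difference between isoforms is described and has no test.

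Markers of the heart moved the same way as Cox6a2. Of 14 heart muscle genes, 14 had negative means and 11 were called lower, against 2.77% of all tested genes. Their median was -1.15, and none was below background. Myh7, a sarcomere myosin, was lowest (-1.69, adjusted p = 0.00148), and the early heart regulator Nkx2-5 was highest (-0.18, adjusted p = 0.297). Their summed intensity was 44700 to 81200 in mutant pools, against 127800 to 183700 in wild-type pools. Their part in the Cox6a2 result was not tested. In whole-embryo pools, fewer heart cells and less of the RNA per heart cell cannot be told apart. The heart markers' median was -1.60 for age_matched and -0.73 for stage_matched pools, and Cox6a2 had -0.90 and -0.69 in the same order (set difference -0.22, adjusted p = 0.723). Of 6 skeletal muscle markers, 3 were tested and only Acta1, which the embryonic heart also makes, was called (-1.36, adjusted p = 0.00872). Ckm, Myog and Myh3 were not well above background on any array.

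No other muscle isoform was called. Cox7a1, the heart and skeletal muscle form of subunit 7A, read -0.15, -0.32, -0.15 and -0.06 (mean -0.17 ± 0.09, adjusted p = 0.334, 95% interval -0.38 to 0.05). All 4 values were negative and small. Its widespread sister Cox7a2 read -0.05, -0.18, 0.11 and 0.27 (mean 0.04 ± 0.22, adjusted p = 0.872). A second, slightly dimmer Cox7a2 probe had a mean of 0.21, without a call. Cox8b, the muscle form of subunit 8, and the lung form Cox4i2 were not well above background in either channel on any of the 4 arrays. The same held for the testis forms Cox7b2 and Cox8c.

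Cox6b2, the testis isoform of subunit 6B, was higher in mutant pools. Its log2 intensities were 9.29, 9.38, 9.52 and 8.96 in mutant pools, against 8.89, 8.98, 8.85 and 8.48 in wild-type pools. The mutant value was the higher one on each array, although the lowest mutant value lay just inside the wild-type range. The ratios were 0.40, 0.41, 0.67 and 0.48 (mean 0.49 ± 0.12, adjusted p = 0.0322), 1.40-fold. The call was lost when any 1 of stage_matched array 1 (adjusted p = 0.0632), age_matched array 1 (0.309) or age_matched array 2 (0.0632) was left out, again by limma. Cox6b1, the widespread isoform, read -0.29, -0.13, -0.08 and -0.22 (mean -0.18 ± 0.04, adjusted p = 0.293). Cox6b2 exceeded Cox6b1 on each array, by 0.69, 0.53, 0.74 and 0.69. This difference was not tested either.

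**Figure D3:**
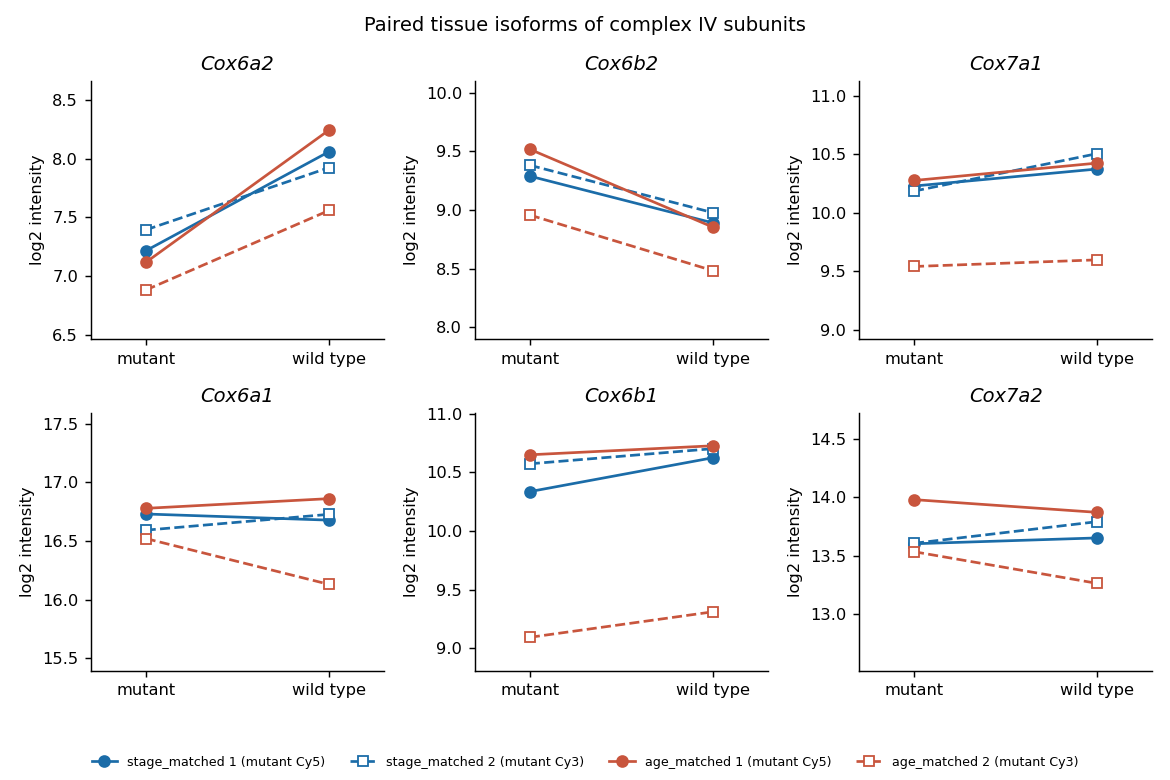
Log2 intensity (vertical axis) in the mutant and wild-type channel of each array for 3 pairs of complex IV isoforms, tissue-restricted above and widespread below; a line joins the channels of 1 array, and every panel spans the same range of log2 units. Cox6a2 is lower and Cox6b2 higher in the mutant channel on all 4 arrays, while Cox6a1 and Cox7a2 differ in direction between arrays.

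The promoters of 66 of the 80 structural subunits were matched by symbol in RefSeq (GRCm38.p6). Their 250 bases before the start were searched on both strands for 4 motifs, none of which contains another: CGCATGCG, the core of the NRF1 site and the same on both strands, CCGGAAGT, an ETS site of the kind that GABPA binds, the TATA box TATAAA, and CCAAT. Counted by gene, the NRF1 letters stood in 7 of 66 (10.6%) against 1.75% of all 27025 genes in the table, and the ETS letters in 3 (4.5%) against 3.23%. TATAAA stood in 6 (9.1%) against 14.33%, and CCAAT in 28 (42.4%) against 37.49%. A gene with several listed starts counts once if any of its windows holds the letters. These shares are a description of the letters in the windows. The called Cox6b2 and its uncalled sister Cox6b1 are printed to compare an isoform pair, and Cox6a1 as an NRF1 example. All lie on the minus strand, at chr7:4753095-4753344, chr7:30626115-30626364 and chr5:115348959-115349208, and capitals mark the motif matches, with CCAAT written ATTGG where it lies on the other strand.
Cox6b2: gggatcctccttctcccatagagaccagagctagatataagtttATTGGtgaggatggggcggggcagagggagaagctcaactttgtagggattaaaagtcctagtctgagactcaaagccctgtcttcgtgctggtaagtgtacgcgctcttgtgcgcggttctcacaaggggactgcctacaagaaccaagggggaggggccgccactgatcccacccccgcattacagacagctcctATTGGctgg
Cox6b1: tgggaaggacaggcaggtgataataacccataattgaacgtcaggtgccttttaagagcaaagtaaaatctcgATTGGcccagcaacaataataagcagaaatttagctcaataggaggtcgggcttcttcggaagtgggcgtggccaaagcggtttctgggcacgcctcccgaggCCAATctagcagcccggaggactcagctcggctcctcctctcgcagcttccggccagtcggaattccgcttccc
Cox6a1: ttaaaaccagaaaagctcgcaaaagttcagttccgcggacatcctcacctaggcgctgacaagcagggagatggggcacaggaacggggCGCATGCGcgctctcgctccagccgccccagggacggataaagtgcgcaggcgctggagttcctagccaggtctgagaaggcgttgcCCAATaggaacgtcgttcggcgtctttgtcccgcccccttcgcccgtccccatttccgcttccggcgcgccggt
Each of these windows holds 1 or 2 CCAAT matches and none holds TATAAA or CCGGAAGT. The promoter of Cox6a2 is not shown.

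Leaving out age_matched array 1 also removed the calls of Cox6a2 (adjusted p = 0.144) and of the second Ndufa7 probe (adjusted p = 0.308), and left 23 calls among all tested probes in place of 1055. Without background correction these calls were lost too, at adjusted p = 0.0593 for Cox6a2, 0.0781 for Cox6b2 and 0.0608 for the second Ndufa7 probe.

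The members' values on single arrays differed with the dye orientation, by an absolute size also seen over all tested genes. The fitted dye effect is the distance of each orientation from the mean of both, so the gap between orientations is larger. It had a median absolute size of 0.098 for members and 0.103 for all tested genes. The members' median was 0.05 and 0.11 on the arrays with the mutant in Cy5, and -0.13 and -0.07 on those with the mutant in Cy3. Over all tested probes the median lay between -0.012 and 0.004 on each array. Of 81 members, 54 were higher with the mutant in Cy5, and the same count over all tested genes is not given here. Across the 81 genes, Pearson's r was 0.70 between the 2 arrays with the mutant in Cy5 and 0.31 between those with the mutant in Cy3. It was 0.20 between the 2 stage_matched and 0.02 between the 2 age_matched arrays, which share their pools. These correlations are a description across genes, which are not independent replicates. A single sign on all 4 arrays was found for 17 of 81 members (21.0%), 10 negative and 7 positive, against 28.5% of all tested genes.

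**Figure D4:**
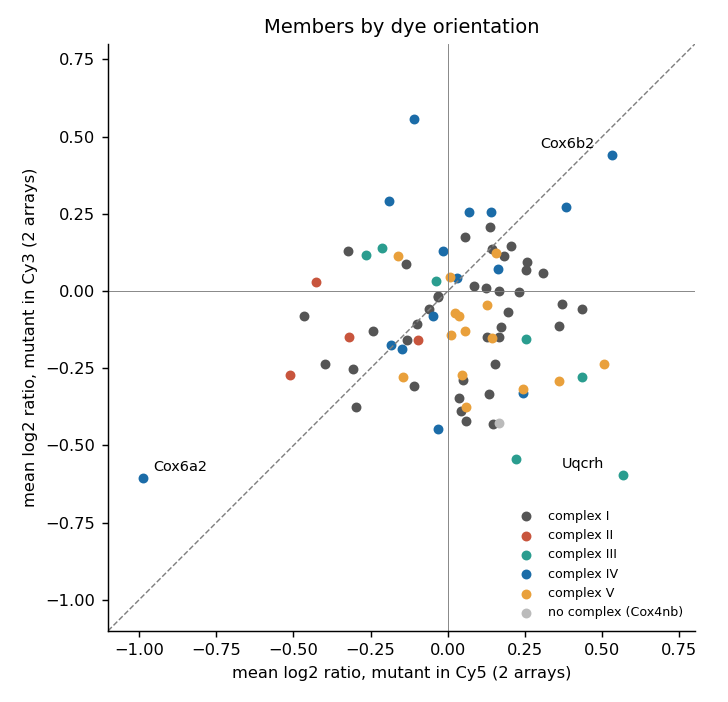
Mean log2 ratio of mutant over wild type of each of the 81 members over the 2 arrays with the mutant in Cy5 (horizontal axis) and the 2 with the mutant in Cy3 (vertical axis), coloured by complex; the dashed line marks equal values. Cox6b2 (0.53 and 0.44) lies close to the line, Cox6a2 (-0.99 and -0.61) is negative in both orientations but off the line, and Uqcrh (mean -0.01) lies far from it.

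The sets were also compared with each other. The difference age_matched minus stage_matched was called for 0 of 81 members, against 2.1% of all tested genes. Its error comes from dye-exchanged arrays of the same pools and has 1 residual degree of freedom. Ndufb8, which lies 7.54 Mb from Btaf1 on chromosome 19 and is the only member within 20 Mb, had a mean of -0.10 (adjusted p = 0.583).

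The mitochondrial genome encodes membrane subunits of complexes I and V, the cytochrome b of complex III and the catalytic core of complex IV. The 4 tested probes that the files place on it were added after the files were seen. COX2, the copper-carrying subunit of complex IV, had a mean of -0.05, CYTB, that cytochrome b, had 0.00, and the probes known only by accession had 0.08 and -0.04. None was called, with adjusted p values of 0.671 or more.

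Genes that control, feed or supply the chain were not called in 4 of the 7 related lists. At the 4.89% of all tested genes called in either direction, lists of this size would hold few calls. Of 17 tested regulators of mitochondrial biogenesis, 0 were called, with a median of 0.01. The coactivators Ppargc1a and Ppargc1b had means of -0.04 and -0.35 (adjusted p = 0.86 and 0.073). The transcription factors Nrf1 (0.07), Gabpa (0.26), Esrra (-0.24) and Tfam (-0.07), which drive many respiratory chain genes, were not called. Of 19 tested citric acid cycle and pyruvate dehydrogenase genes, 0 were called, with Idh2 lowest (-0.41, adjusted p = 0.141) and Pcx highest (0.29, adjusted p = 0.155). Of 30 tested import and carrier genes, 0 were called, from Timm13 (-0.37) to Tomm5 (0.13). Of 7 tested uncoupling and ATPase regulators, 0 were called, from Higd1a (-0.39, adjusted p = 0.0518) to Usmg5 (0.17).

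Calls in the other 3 lists are read against 2.77% of all tested genes called lower and 2.12% called higher. Of 15 tested electron carriers and coenzyme Q genes, 1 fell and 0 rose. It was Cyct, the testis form of cytochrome c, whose probe was well above background in the wild-type channel on all 4 arrays and in the mutant channel on 0 of 4. It passed the filter through the wild-type pools alone and has only an approximate bound in mutant pools. That bound put the level 1.43-fold lower in mutant pools. For this bound, the dim signal was set on each array to the higher of its own value and the lowest signal well above background there. The latter was used on 1 array. On the others the undetected signal's own value stood, so the bound is not strict. The bound has no test. The call (adjusted p = 0.0212, limma) was made on the mean without it, -0.56. That call was lost without age_matched array 1 (adjusted p = 0.225, limma). The somatic form Cycs had a mean of 0.12 (adjusted p = 0.52), and Pdss1, which makes the coenzyme Q tail, 0.29. Of 26 tested assembly factors, 1 rose and 1 fell. Cox18 rose (0.29, 0.44, 0.07 and 0.96, mean 0.44, adjusted p = 0.0419) and Oxa1l fell (-0.15, -0.53, -0.46 and -0.51, mean -0.41, adjusted p = 0.0485). Both insert mitochondrially encoded proteins into the inner membrane, and their calls were at the edge of the threshold. Leaving out any 1 of the 4 arrays ended both calls, with adjusted p from 0.0639 to 0.369 for Cox18 and from 0.0525 to 0.337 for Oxa1l.

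Of 9 tested p53-linked mitochondrial genes, 2 rose, against 2.12% of all tested genes called higher. Pmaip1 (Noxa) read 1.24 to 2.26 over the 4 arrays (mean 1.60 ± 0.40, adjusted p = 0.00215) and Bbc3 (Puma) 0.51, 0.44, 0.77 and 1.16 (mean 0.72 ± 0.34, adjusted p = 0.023). Both act at the outer membrane in cell death and were positive on all arrays. Without age_matched array 1 the Bbc3 call was lost (adjusted p = 0.185, limma). Fdxr, an electron donor for mitochondrial steroid and iron-sulphur synthesis, had a mean of -0.18 (adjusted p = 0.311). Sco2, a copper chaperone of complex IV, has no value here because no probe carries that name.

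**Figure D5:**
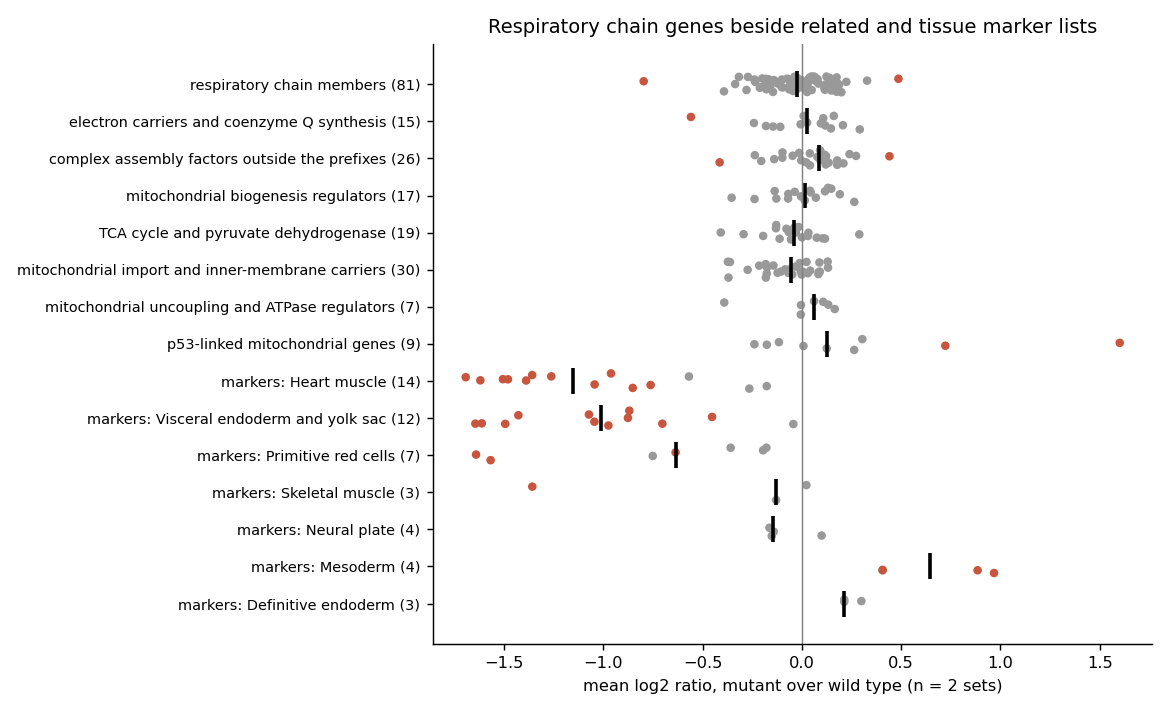
Mean log2 ratio of mutant over wild type (horizontal axis, n = 2 sets) of every tested gene of the respiratory chain, of 7 related mitochondrial lists and of tissue marker lists, with the number tested in brackets, calls in red and the median as a black bar; vertical scatter within a line only separates points. The mitochondrial lists centre near 0 (medians -0.06 to 0.13), while the heart (-1.15) and visceral endoderm (-1.01) markers lie far below 0.

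Other tissues moved beside these values, with 2.77% of all tested genes called lower and 2.12% called higher. Visceral endoderm and yolk sac markers were lower in mutant pools (12 of 12 negative, 11 called, median -1.01), with a summed intensity of 29600 to 36500 in mutant pools against 56200 to 93600 in wild-type pools. Of 10 markers of primitive red cells, 7 were tested, all 7 were negative and 3 were called (median -0.64). Among them Klf1 passed the filter through the wild-type channel alone. Their summed intensity was 3300 to 9300 in mutant pools against 12900 to 23100 in wild-type pools. Of 4 mesoderm markers 3 were called higher (median 0.65), and 0 of 4 neural plate and 0 of 3 definitive endoderm markers were called. Their part in the values of the respiratory chain was not tested.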

How the data were processed

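RNA from mutant and wild-type embryo pools, 300 ng per dye by the labels, was hybridised to 4 Agilent arrays on 1 slide with 1 scan. Per the file headers, mean and background intensity per dye are unnormalized scanner values, while processed intensity was corrected for background and dye. Per the file headers, the log10 ratio is processed Cy5 over Cy3. The value table that the authors deposited is the same log10 ratio, turned to mutant over wild type on every array. It matched within 5e-06, had a median of 0 on each array and left 0 columns unassigned. Feature Extraction is 9.5.3 in the submitters' processing notes and 10.5.1.1 in the file headers.

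Log2 ratios were computed from the deposited mean and background intensities with limma 3.58.1 (R 4.3.3): normexp with offset 50, loess within arrays (control and marked spots at weight 0), and the sign turned so that all ratios are mutant over wild type. Dye bias of single probes can remain. A probe was tested where it was well above background on all 4 arrays in the mutant or the wild-type channel. It also needed an unmarked spot on every array. Both conditions held for 21940 of 41174 probes. The 2 arrays of a set hold the same pools and were averaged. The 2 set means were tested with limma (1 residual and 7.12 prior degrees of freedom), with Benjamini-Hochberg adjustment. Set differences used the 4 arrays with set and dye terms. The scripts were tested on simulated data. Current gene names came from RefSeq by accession.

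The members, lists and marker genes were chosen with earlier results of these data known. Named genes are the called members, the 10 highest and 10 lowest means, tissue isoforms, core subunits, members near Btaf1 and the genes that merely share a prefix. From related lists they are the called genes, the extremes and 9 regulators. Alternatives covered background correction, normalization, the filter, probe averaging, single arrays and a random block for the set. A single member is counted but its own values are not reported here.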

Additional observations from a re-analysis of the deposited data

Results flagged for a closer look

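For 2 members, by the brightest probe, every array of one set moved one way and every array of the other set the opposite way. Ndufa5, an accessory subunit of complex I, read 0.01 and 0.13 on the age_matched arrays and -0.13 and -0.24 on the stage_matched arrays, a set difference of 0.25 (adjusted p = 0.634, limma). Cox7a2, the widespread isoform of subunit 7A, read 0.11 and 0.27 on the age_matched arrays and -0.05 and -0.18 on the stage_matched arrays, a set difference of 0.31 (adjusted p = 0.509, limma). Neither difference passed the test. The lowest age_matched value of Ndufa5 was only 0.01. A second, slightly dimmer Cox7a2 probe lacked the pattern. It read 0.48 and 0.18 on the age_matched arrays and 0.38 and -0.22 on the stage_matched arrays. How often all tested genes show this sign pattern was not counted, so it is not read as a trait of these members.

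Among the genes of the 7 related lists, 3 passed the test of the difference between the sets, whose error is technical, against 2.1% of all tested genes. The lists held 15, 26, 17, 19, 30, 7 and 9 tested genes. The 3 calls are therefore near that share and are not read as a trait of the lists. Vdac1 and Trp53 were named after their values were seen. Idh2, the mitochondrial NADP-dependent isocitrate dehydrogenase, read -0.78 and -0.67 on the age_matched arrays and -0.08 and -0.11 on the stage_matched arrays, a set difference of -0.63 (adjusted p = 0.0226, limma). Vdac1, the outer membrane channel, read 0.29 and -0.05 on the age_matched arrays and -0.11 and -0.99 on the stage_matched arrays, a set difference of 0.67 (adjusted p = 0.0125, limma). Trp53 read -0.07 and 0.52 on the age_matched arrays and -0.48 and -0.44 on the stage_matched arrays, a set difference of 0.68 (adjusted p = 0.0105, limma). Among the markers named, Acta1, skeletal alpha-actin, read -1.80 and -1.68 on the age_matched arrays and -0.71 and -1.24 on the stage_matched arrays, a set difference of -0.77 (adjusted p = 0.00221, limma).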

How the results depend on the processing

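Every ratio already pairs a mutant pool with a wild-type pool on the same array. Replicate numbers gave no further pairing, because replicates 1 and 2 are dye orientations of the same pools. No count below reversed a direction. Without background correction, 0 members were called lower, 0 higher, and 62 probes in all, in place of 1055. Median centring gave 0 higher, processed signals 1824 probes and no filter on dim probes 595. A random block for the set gave 2 lower; averaging a gene's probes gave 2 lower (with Ndufa7) and 2 higher (with Cox5b). Leaving out 1 array gave 0 to 2 lower, 0 to 1 higher, a median of -0.058 to 0.036 and 23 to 1207 probes. Cox6a2 was called in 10 of 12 alternatives (-1.28 to -0.58, adjusted p 0.00133 to 0.144), Cox6b2 in 7 of 12 (0.38 to 0.62, adjusted p 0.0115 to 0.309) and the second Ndufa7 probe, an alternative chosen after seeing the data, in 9 of 11. Sdha was called without stage_matched array 2 (adjusted p = 0.0292) and with the random block (0.0455). Set differences of members stayed at 0 calls in all 6 alternatives run. Dimness limits Cox4i2, Cox7b2, Cox8b and Cox8c, and 2 sets limit all.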
